A study of Mus musculus with 34 samples.

Results

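The 45 genes described here act in DNA replication and S phase. They were taken by gene name from a list that covers origin licensing, the replication fork, nucleotide supply and the switch into S phase. All 45 stood once in the deposited table of 54354 genes, all are protein-coding, and all passed the filter on low counts in every comparison. RNA was sequenced from mouse colon tumour organoids, which are three-dimensional cultures of epithelial cells, and every line carried the genotype that the labels call AKP. The groups were 9 libraries of Degs1-KO clone2, 9 of Degs1-KO clone1 and 3 of Scrambled in a CRISPR experiment, and 3 libraries labelled shYAP and 10 of shControl in a hairpin RNA experiment. Degs1 encodes the desaturase that makes ceramide from dihydroceramide, and Yap1 encodes a transcriptional co-activator of the Hippo pathway. The knockout was made with a ribonucleoprotein CRISPR method, and each clone is a single line. The labels name no separate cultures within a group, so the replicate spread behind every p-value could be technical alone.

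In G1, the origin recognition complex, Cdc6 and Cdt1 load the MCM2-7 helicase onto DNA, which licenses origins. Cdc45 and the GINS complex then switch the helicase on, and polymerases, the sliding clamp and its loader copy both strands. E2F factors, set free from RB proteins by cyclin-dependent kinases, drive many of these genes at the entry into S phase, and in the intestine their mRNAs mark dividing crypt cells. In bulk RNA, fewer cells in S phase and less of each mRNA per cell cannot be told apart.

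Total counts ranged from 883253 to 6597099 per library, and clone1 replicate 2 was the shallowest. Levels are CPM, read counts scaled to a common library size, after TMM normalisation. Degs1 averaged 1.71 ± 0.89 CPM in clone2 and 2.41 ± 1.32 CPM in clone1 (SD, n = 9 each), against 7.72 ± 2.62 CPM in Scrambled (SD, n = 3). The libraries labelled shYAP had 14.7 ± 4.21 CPM (SD, n = 3), against 5.22 ± 1.67 CPM in shControl (SD, n = 10). Degs1 was lower in clone2 by edgeR's quasi-likelihood test (log2 fold change -2.15 ± 0.43 SE, adjusted p = 0.00016) and in clone1 (-1.57 ± 0.43 SE, adjusted p = 0.012), and all adjusted p-values that follow come from this test with Benjamini-Hochberg adjustment over all genes. Yap1 went against its label, at 17.9 to 20.1 CPM in the libraries labelled shYAP, against 9.49 to 22.0 CPM in shControl (0.20 ± 0.23 SE, adjusted p = 0.62). The 12 colon epithelium markers were all detected in every group and summed to 2976 to 3814 CPM in clone2, 5959 to 7072 CPM in clone1, 5483 to 5697 CPM in Scrambled, 3972 to 4108 CPM in the libraries labelled shYAP and 3907 to 4354 CPM in shControl. The 8 fibroblast markers summed to at most 1.18 CPM in any library, and Col1a2, Col3a1 and Pdgfrb were at 0 in all of them. Of the immune markers, Cd3e was at 0 in all 5 groups, and the sum of the list was 17.4 to 31.4 CPM in clone2, 22.8 to 28.9 CPM in clone1 and 32.6 to 38.5 CPM in Scrambled. The 6 endothelial markers summed to at most 6.48 CPM. The 10 absorptive colonocyte markers summed to 162 to 577 CPM in clone2, 844 to 1997 CPM in clone1 and 267 to 294 CPM in Scrambled. Of the 6 tested, 5 were lower and 1 higher in clone2 than in Scrambled at an adjusted p under 0.05 (median -2.09). In clone1, 0 were lower and 5 higher (median 1.90). Of all genes, 33.1% were called in clone2 and 12.7% in clone1. The 8 markers of crypt-base stem cells summed to 227 to 479 CPM in clone2, 187 to 274 CPM in clone1, 293 to 454 CPM in Scrambled, 159 to 215 CPM in the libraries labelled shYAP and 236 to 413 CPM in shControl. Of these 8, 3 were lower and 1 higher in clone2 and likewise in clone1. In the libraries labelled shYAP, 3 were lower and 0 higher, where 11.4% of all genes were called. Lgr5, of this list, changed by -4.30 in clone2 (adjusted p = 1.2e-13), -1.03 in clone1 (adjusted p = 0.010) and -1.84 in the libraries labelled shYAP (adjusted p = 0.0095). The 6 goblet cell markers summed to 197 to 329 CPM in clone2, 208 to 284 CPM in clone1, 316 to 320 CPM in Scrambled, 144 to 162 CPM in the libraries labelled shYAP and 129 to 255 CPM in shControl, with Spdef at 0 in clone1 and in the libraries labelled shYAP, and the part of these marker levels in the results was not tested.

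Some libraries stood apart in the replication genes. In clone1, libraries 7 to 9 summed over the 45 genes to 2646, 2648 and 2882 CPM, and libraries 1 to 6 to between 1598 and 1935 CPM. In shControl, libraries 8 to 10 reached 2803 to 2880 CPM, and libraries 1 to 7 lay between 1482 and 1873 CPM. Every one of clone1 libraries 7 to 9 exceeded every one of clone1 libraries 1 to 6 in 31 of the 45 genes, where 6.28% of all genes did so, and in 0 was every one below, against 6.05% of all genes. The same held in 29 of the 45 genes for shControl libraries 8 to 10 above libraries 1 to 7, against 6.55% of all genes, with 0 below, against 5.43%. Clone2 showed no such split between libraries 7 to 9 and 1 to 6, with 2 genes above and 1 below in libraries 7 to 9, against 5.06% and 5.97% of all genes. Within clone2, libraries 4 to 6 had the lowest sums, at 1278, 1215 and 1168 CPM. Libraries 1 to 3 held 1517, 1475 and 1430 CPM, and libraries 7 to 9 held 1358, 1454 and 1437 CPM. This difference was not tested, and libraries 1 to 6 are kept as 1 run below. The runs of library numbers were drawn from the resemblance of libraries over all genes, and the labels name no batch. Most counts of called genes are also given by run, and single genes only where stated.

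Across the groups, clone2 held the lowest mean of the summed level, and its range overlapped no other group except shControl. Its 9 libraries ran from 1168 to 1517 CPM with a median of 1429.5 CPM, against 2291, 2431 and 2598 CPM in Scrambled. Clone1 ran from 1598 to 2882 CPM with a median of 1854 CPM and lay on both sides of Scrambled. The libraries labelled shYAP held 1836, 1880 and 1976 CPM, against 1482 to 2880 CPM with a median of 1786 CPM in shControl, so they fell inside the range of their control. As a share of all counts, the 45 genes took 0.0997 to 0.144% in clone2, 0.164 to 0.310% in clone1 and 0.235 to 0.283% in Scrambled. The mean over the genes of log2 CPM was 3.99 ± 0.16 in clone2, 4.62 ± 0.36 in clone1 (SD, n = 9 each) and 4.94 ± 0.06 in Scrambled (SD, n = 3).

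**Figure D1:**
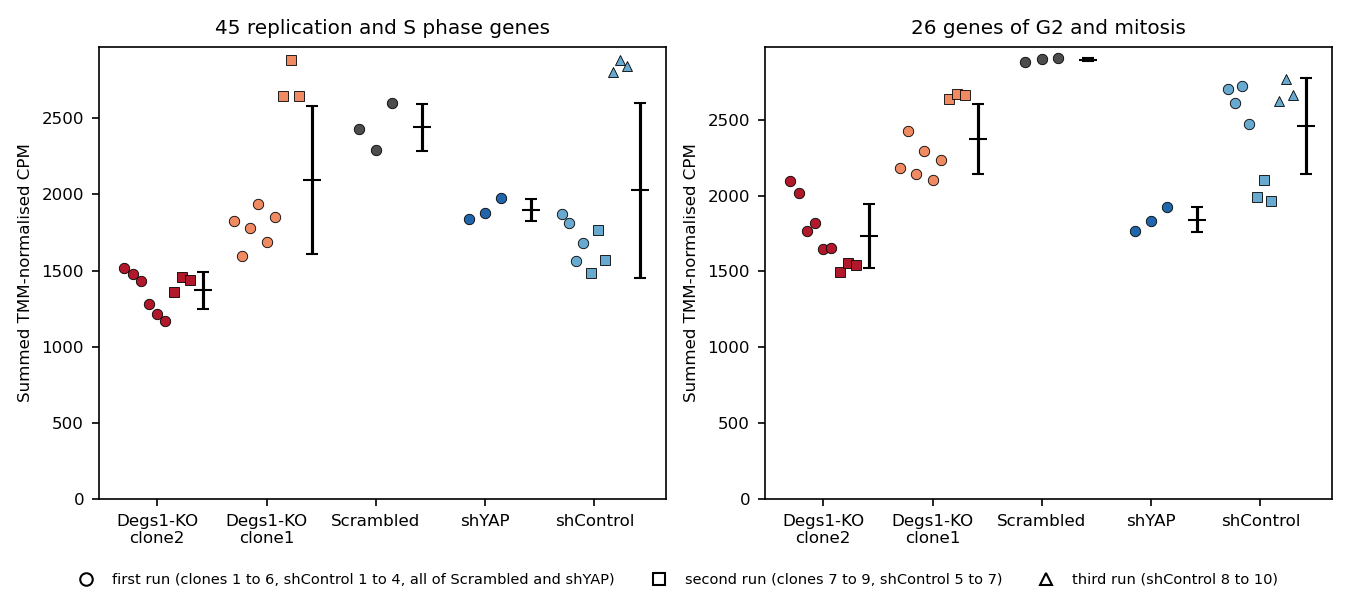
Summed level, in TMM-normalised CPM, of the 45 replication and S phase genes (left) and of 26 genes of G2 and mitosis (right) in each library. Points are libraries, with shapes for runs of library numbers, and bars are the group mean ± SD. Clone2 lies at 1168 to 1517 CPM in the left panel, and clone1 libraries 7 to 9 and shControl libraries 8 to 10 stand above the other libraries of their groups.

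The comparison of the clones with Scrambled asked which replication genes differed in the Degs1 knockout. In clone2, 37 of the 45 genes were lower and 1, Ccne2, was higher past the threshold, an adjusted p of 0.05 over all genes, where 16.6% and 16.5% of all genes tested were lower and higher, 33.1% in all. The median log2 fold change was -0.98 over the 45 genes and -0.03 over all genes. In clone1, 4 of the 45 were lower and 0 were higher by edgeR, with 7 at an unadjusted p under 0.05, where 6.71% and 5.96% of all genes were called, 12.7% in all, and the median was -0.24 against 0.03. The 4 genes of clone1, Mcm3, Mcm6, Gins2 and Dtl, were also lower in clone2. Both clones share the same 3 Scrambled libraries. In clone2, 43 of the 45 genes had a fold change below 0, from -2.17 for Gins3 to 0.75 for Ccne2, and Gins4, Pold1, Pcna, Rfc3, Chaf1a, E2f1 and Ung did not pass. For the mean of both clones, 25 genes were lower and 1 higher, where 9.21% and 8.39% of all genes were, 17.6% in all. That count was 14 without Scrambled replicate 1 or without replicate 3, where 10.6% and 11.6% of all genes were called. It was 19 without replicate 2, where 10.2% were called. With clone libraries 1 to 6 alone the mean of both clones had 34 lower genes and 0 higher ones, where 22.8% of all genes were called, and with libraries 7 to 9 alone it had 20 lower and 1 higher, where 23.6% were called. Every clone2 library lay below every Scrambled library in 34 genes, where 12% of all genes did so, and above in 1, Ccne2, where 12.7% did. Every clone1 library lay below Scrambled in 2 genes, Mcm3 and Gins2, where 5.8% of all genes did so, and above in 0, where 4.95% did.

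**Figure D2:**
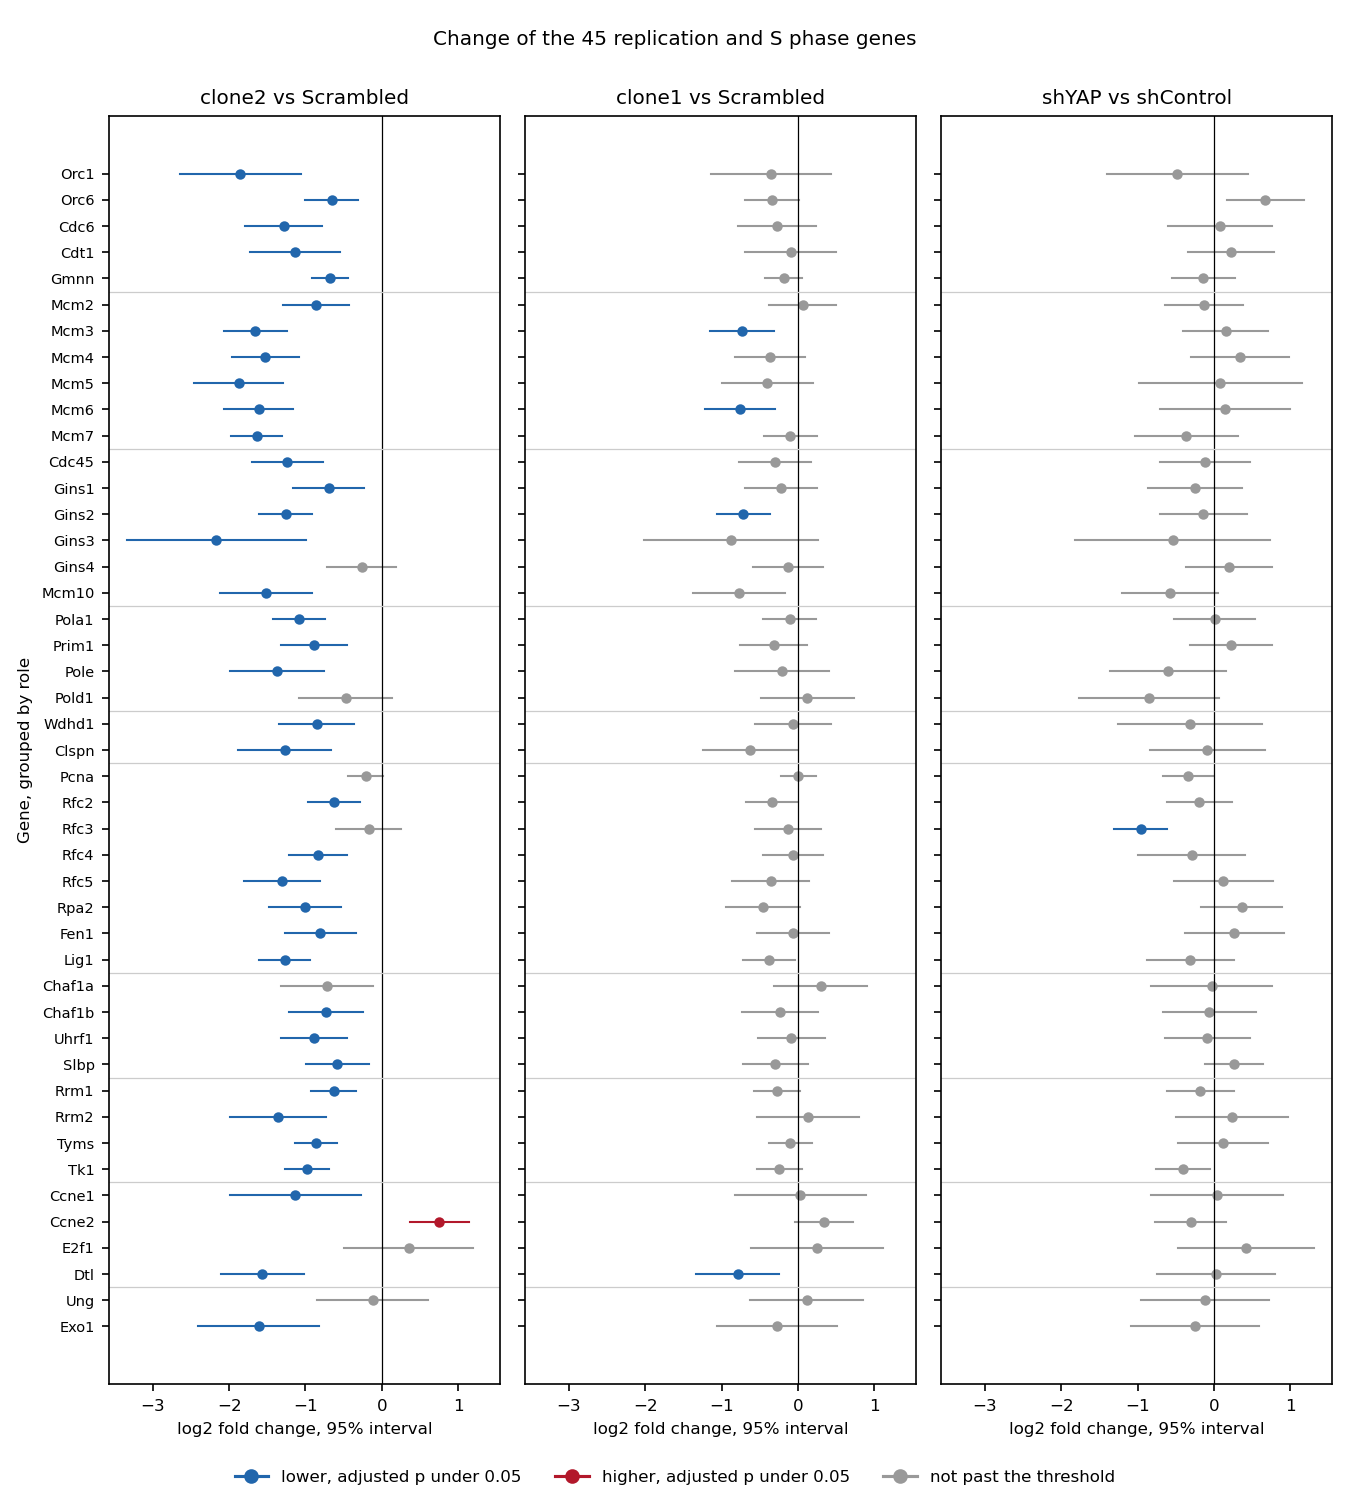
The log2 fold change of each of the 45 genes, grouped by role, in clone2 vs Scrambled, clone1 vs Scrambled and shYAP vs shControl. Points are fitted values with 95% intervals, coloured by whether the adjusted p passed 0.05. In clone2, 37 genes lie below 0 past the threshold, in clone1 4 genes, and in the libraries labelled shYAP 1 gene.

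All 5 licensing genes were lower in clone2 and none passed in clone1. Gmnn encodes geminin, which binds Cdt1 and blocks relicensing after S phase has begun. It lay at 91.9 to 127 CPM in clone2 (median 105), at 132 to 183 CPM in clone1 (median 139) and at 187, 173 and 159 CPM in Scrambled. The highest clone2 library was below the lowest of either other group, and the fold change in clone2 was -0.68 ± 0.12 SE (adjusted p = 2.3e-05). Orc1, the largest subunit of the origin recognition complex, was a low-level gene at 0.785 to 3.01 CPM in clone2 (median 1.48), 1.09 to 7.74 CPM in clone1 (median 4.73) and 5.31, 5.56 and 7.30 CPM in Scrambled. Its change in clone2 was -1.85 ± 0.39 SE (adjusted p = 0.00028). In clone1 its value was -0.35, with a 95% interval of -1.13 to 0.43, and its libraries overlapped Scrambled. Cdc6, which loads the helicase, changed by -1.28 ± 0.25 SE in clone2 (adjusted p = 0.00011). Cdt1, its partner in loading, changed by -1.14, a call lost without Scrambled replicate 3, and Orc6 by -0.66.

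The MCM2-7 helicase, the motor that opens DNA at the fork, had the lowest median change of the 10 role groups in clone2: all 6 subunits were lower in clone2, with a median of -1.63, and 2 were lower in clone1, with a median of -0.38, where helicase activation had the lowest, at -0.51. Mcm7 (ENSMUSG00000029730, chr5:138164583-138172422 of mm10, minus strand) had 29.2 to 56.0 CPM in clone2 (median 45.3), 98.2 to 172 CPM in clone1 (median 111) and 129, 130 and 157 CPM in Scrambled. Clone2 was below every library of the other groups of the experiment, at a change of -1.64 ± 0.16 SE (adjusted p = 2.3e-09). In clone1 the change of Mcm7 was -0.10 (95% interval -0.45 to 0.25), and 3 of its libraries lay above all of Scrambled. Mcm3 (ENSMUSG00000041859, chr1:20802968-20820312, minus strand) had 21.5 to 52.8 CPM in clone2 (median 31.7), 46.7 to 85.2 CPM in clone1 (median 49.4) and 108, 90.5 and 109 CPM in Scrambled. Neither clone overlapped Scrambled, and Mcm3 was lower in both, with a change of -1.66 ± 0.20 SE in clone2 (adjusted p = 3.9e-07) and of -0.73 ± 0.21 SE in clone1 (adjusted p = 0.017). Mcm6 fell likewise in clone2 (-1.61 ± 0.22 SE, adjusted p = 5.4e-07) and in clone1 (-0.76 ± 0.23 SE, adjusted p = 0.021), Mcm4 passed in clone2 (-1.52 ± 0.22 SE, adjusted p = 4.5e-06), and Mcm5 had the largest fall of the helicase in clone2 (-1.87 ± 0.28 SE, adjusted p = 2.5e-05). Mcm2 had the smallest, at -0.86 ± 0.21 SE.

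Of the genes that activate the helicase, 5 of 6 were lower in clone2 and 1 of 6 in clone1. Gins2 (ENSMUSG00000031821, chr8:120578633-120589304, minus strand), a subunit of the GINS complex, had 17.2 to 29.8 CPM in clone2 (median 21.7), 25.4 to 45.4 CPM in clone1 (median 27.3) and 53.8, 51.7 and 57.6 CPM in Scrambled. Every clone library was below every Scrambled library. The change was -1.26 ± 0.17 SE in clone2 (adjusted p = 2.6e-07) and -0.71 ± 0.17 SE in clone1 (adjusted p = 0.004), and in clone1 it passed with any 1 Scrambled library left out. Of the other 3 genes of clone1, Mcm3 and Mcm6 passed without Scrambled replicate 2 but not without replicate 1 (adjusted p = 0.084 and 0.097) or replicate 3 (0.081 and 0.11), and Dtl passed in none of these settings. Cdc45, which joins GINS on the helicase, changed by -1.24 ± 0.23 SE in clone2 (adjusted p = 5.7e-05). Gins3 had the largest fitted fall of all 45 genes there (-2.17 ± 0.58 SE, adjusted p = 0.0033), a call that was lost without Scrambled replicate 1, and it had 1 to 6 counts per library of clone2, against 19, 18 and 8 counts in Scrambled. Mcm10, which helps to start unwinding, changed by -1.52 ± 0.30 SE in clone2, and Gins1 by -0.70 ± 0.23 SE, a call lost without Scrambled replicate 2 or 3. Gins4 stood at -0.26, with a 95% interval of -0.71 to 0.19.

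The polymerase genes were lower in clone2 in 3 of 4 cases, Pold1, the catalytic subunit of polymerase delta, being the exception at -0.47 (95% interval -1.08 to 0.14). Pola1, the catalytic subunit of the polymerase that starts each new strand, had 12.5 to 27.8 CPM in clone2 (median 18.9), 28.2 to 44.4 CPM in clone1 (median 39.8) and 38.8, 40.3 and 43.003 CPM in Scrambled. Clone2 lay below both other groups, and its change was -1.09 ± 0.17 SE (adjusted p = 3.9e-06). Pole, the catalytic subunit of the leading strand polymerase, changed by -1.37 ± 0.31 SE and Prim1, the primase subunit that makes the RNA primer, by -0.88 ± 0.21 SE. Both fork genes were lower in clone2. Clspn encodes claspin, which couples the fork to the checkpoint kinase, and had 5.72 to 16.5 CPM in clone2 (median 7.91), 7.98 to 26.3 CPM in clone1 (median 12.2) and 24.3, 19.9 and 23.5 CPM in Scrambled (clone2 change -1.27 ± 0.30 SE, adjusted p = 0.0014). Wdhd1, which links the helicase to polymerase alpha, changed by -0.85 ± 0.24 SE in clone2.

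The clamp, its loader and the lagging strand enzymes held 2 of the 7 genes that did not pass in clone2, Pcna and Rfc3, with 6 of 8 lower. Pcna encodes the sliding clamp and was the gene with the highest CPM of its group, at 217 to 263 CPM in clone2 (median 251), 220 to 350 CPM in clone1 (median 264) and 264, 273 and 296 CPM in Scrambled. Every clone2 library was below every Scrambled library, yet the change was small at -0.21, with a 95% interval of -0.44 to 0.02 (adjusted p = 0.15). Lig1, the ligase that joins Okazaki fragments, had 25.99 to 47.1 CPM in clone2 (median 41.5), 55.1 to 98.1 CPM in clone1 (median 61.5) and 96.3, 91.9 and 94.3 CPM in Scrambled. Its change in clone2 was -1.27 ± 0.16 SE (adjusted p = 1.7e-07). Among the other loader subunits, Rfc5 changed by -1.30, Rfc4 by -0.83 and Rfc2 by -0.62 in clone2, all past the threshold. Fen1, the nuclease that trims Okazaki fragments, changed by -0.80 there. Rfc3, a subunit of the clamp loader, split clone2 by library: libraries 1 to 6 held 54.2 to 81.2 CPM, libraries 7 to 9 held 116, 120 and 129 CPM, and Scrambled held 89.2, 100.2 and 93.1 CPM. The change of Rfc3 was -0.17 (95% interval -0.60 to 0.26) over all of clone2, -0.51 (adjusted p = 0.0015) with libraries 1 to 6 alone and 0.38 (adjusted p = 0.0024) with libraries 7 to 9 alone.

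Of the 4 genes of histone and chromatin assembly, 3 were lower in clone2 and none passed in clone1 or in the mean of both clones. Uhrf1, which brings the maintenance methyltransferase to new DNA, had 9.01 to 18.9 CPM in clone2 (median 14.97), 17.4 to 39.1 CPM in clone1 (median 22.7) and 30.0, 24.4 and 28.2 CPM in Scrambled (clone2 change -0.89 ± 0.21 SE, adjusted p = 0.0012). Slbp, which binds the stem-loop of histone mRNAs, had 17.2 to 33.7 CPM in clone2 (median 29.0), 21.1 to 45.7 CPM in clone1 (median 27.8) and 39.5, 38.5 and 40.8 CPM in Scrambled. Slbp's call in clone2 (-0.58 ± 0.21 SE, adjusted p = 0.028) was lost without Scrambled replicate 1, 2 or 3 (adjusted p = 0.074, 0.073 and 0.087). Of the subunits of chromatin assembly factor 1, which places histones behind the fork, Chaf1b changed by -0.73 in clone2, a call lost without Scrambled replicate 1 or 3, and Chaf1a stood at -0.72 (adjusted p = 0.061).

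All 4 genes of nucleotide supply were lower in clone2 and none passed in clone1. Rrm2 encodes the small subunit of ribonucleotide reductase, which makes deoxynucleotides. It had 35.5 to 68.4 CPM in clone2 (median 46.2), 45.3 to 222 CPM in clone1 (median 114) and 120, 109 and 145 CPM in Scrambled. Clone2 lay below Scrambled throughout, at -1.36 ± 0.30 SE (adjusted p = 0.0017), while clone1 spread over both sides, at 0.13 with a 95% interval of -0.54 to 0.80. Tk1, the cytosolic thymidine kinase, had 69.0 to 121 CPM in clone2 (median 89.9), 118 to 193 CPM in clone1 (median 153) and 171, 179 and 208 CPM in Scrambled (clone2 change -0.98 ± 0.14 SE, adjusted p = 1.3e-06). Against shControl in place of Scrambled, Tk1 in clone2 gave -0.21 (adjusted p = 0.14). Tyms, thymidylate synthase, changed by -0.86 ± 0.13 SE in clone2 (adjusted p = 4e-06), and Rrm1, the large reductase subunit, by -0.63 ± 0.15 SE (adjusted p = 0.00092).

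The G1/S regulators did not move as one. Ccne2 (ENSMUSG00000028212, chr4:11191351-11204779, plus strand) encodes cyclin E2, which with its kinase drives cells into S phase, and it was the single gene of the 45 that was higher in clone2. It had 25.98 to 31.9 CPM in clone2 (median 27.7), 14.2 to 30.2 CPM in clone1 (median 18.7) and 15.7, 17.9 and 15.8 CPM in Scrambled. Every clone2 library was above every Scrambled library, at 0.75 ± 0.19 SE (adjusted p = 0.0019), and clone1 gave 0.34 with a 95% interval of -0.04 to 0.73. The 10 shControl libraries held 18.3 to 40.0 CPM, a range that includes clone2, and with shControl in place of Scrambled the change in clone2 was 0.08 (adjusted p = 0.67). Ccne1, cyclin E1, was lower in clone2 at -1.13 ± 0.42 SE (adjusted p = 0.036), against the direction of Ccne2, and this call was lost without Scrambled replicate 1 or 2. E2f1, a factor that drives S phase genes, stood at 0.35 with a 95% interval of -0.49 to 1.20. Dtl, the substrate receptor of the ligase that removes Cdt1 at the fork, had 4.52 to 14.0 CPM in clone2 (median 8.19), 4.42 to 24.7 CPM in clone1 (median 13.3) and 26.1, 23.8 and 25.6 CPM in Scrambled. It was lower in clone2 (-1.56 ± 0.27 SE, adjusted p = 2.1e-05) and in clone1 (-0.79 ± 0.27 SE, adjusted p = 0.047). Of the repair genes, Exo1, an exonuclease of mismatch repair, was lower in clone2 (-1.62 ± 0.39 SE, adjusted p = 0.0016), with 0.942 to 8.37 CPM there and 9.93, 8.80 and 15.4 CPM in Scrambled. Ung, the glycosylase that removes uracil from DNA, did not pass.

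**Figure D3:**
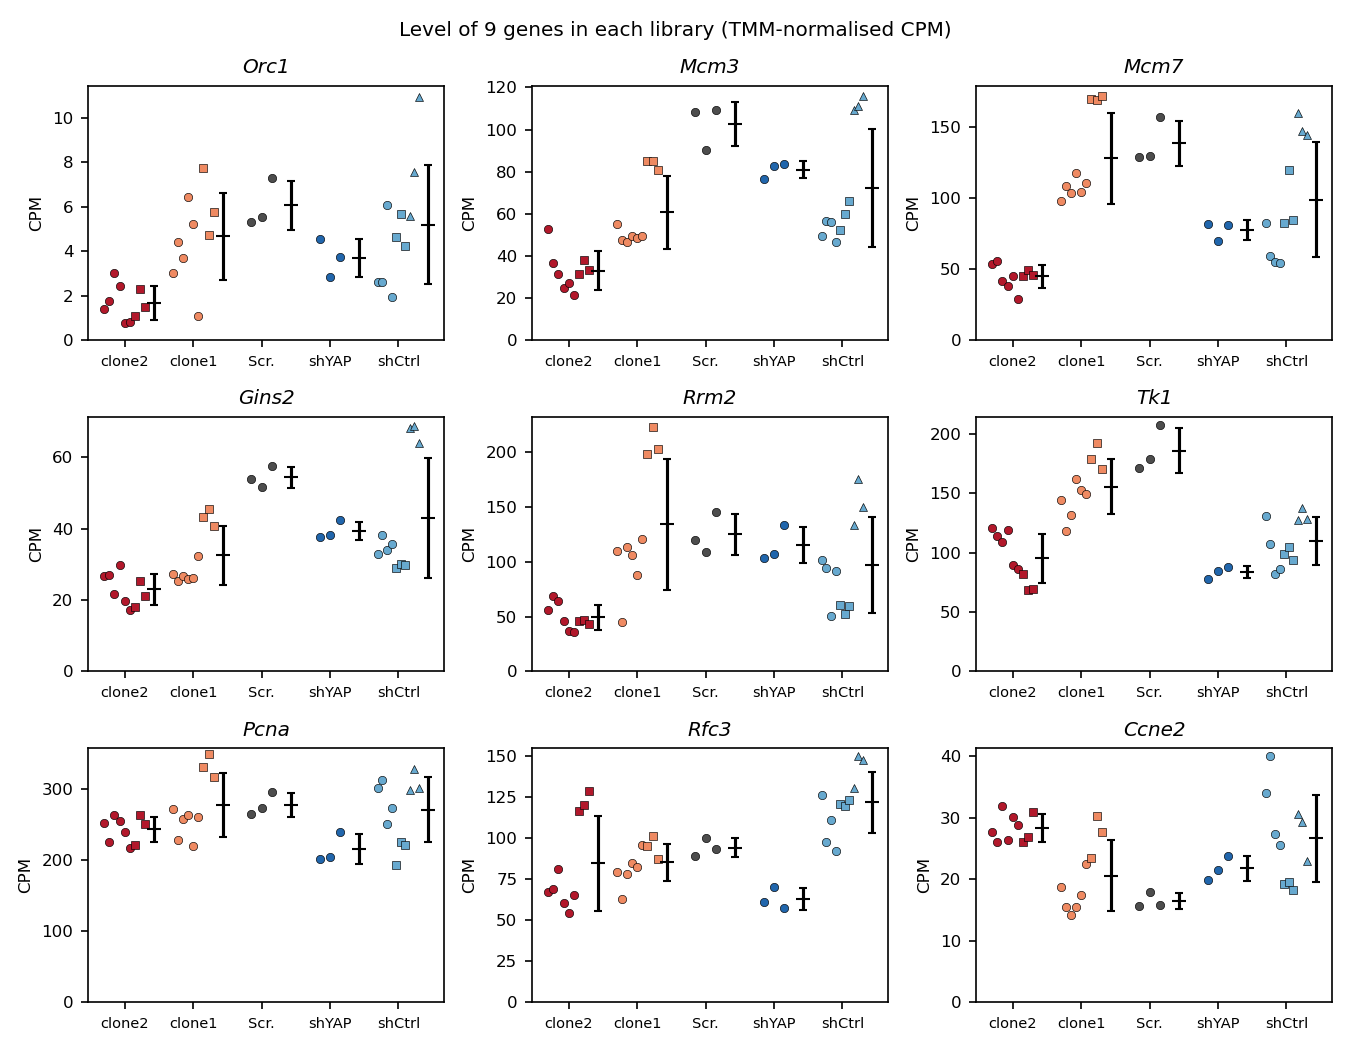
Level of 9 of the genes in each library, in TMM-normalised CPM, with groups in the order clone2, clone1, Scrambled, shYAP and shControl. Points are libraries, with shapes for runs of library numbers, and bars are the mean ± SD. Mcm7 in clone2 lies at 29.2 to 56.0 CPM, below clone1, Scrambled and the libraries labelled shYAP, and Ccne2 in clone2 lies at 25.98 to 31.9 CPM, above Scrambled.

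Compared per kb of exon, which allows genes to be set side by side, Pcna and Gmnn had the highest levels of the 45 in every group: Pcna had 101 CPM per kb in clone2 and 116 in Scrambled, and Gmnn had 74.8 in clone2 and 118 in Scrambled. The lowest were Gins3 in clone2, at 0.231 CPM per kb, and Pole in Scrambled, at 0.774 CPM per kb. Ccne2 stood 14th of 45 in clone2 and 28th in Scrambled.

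Which clone1 libraries entered decided the clone1 result. With clone1 libraries 1 to 6 alone, 18 of the 45 genes were lower and 0 were higher, with a median of -0.42, where 18.4% of all genes were called. With libraries 7 to 9 alone, 0 were lower and 6 were higher (Rrm2, Ccne2, Fen1, Rfc4, Mcm7 and Pcna), with a median of 0.08, where 16.2% of all genes were called. Rrm2 gave -0.31 (adjusted p = 0.44) with libraries 1 to 6 and 0.73 (adjusted p = 1.2e-06) with libraries 7 to 9, and Mcm7 gave -0.35 (adjusted p = 0.067) and 0.29 (adjusted p = 0.031). Mcm3 stayed below 0 in both runs, at -1.03 (adjusted p = 4.2e-05) and -0.31 (adjusted p = 0.051). In clone2 the runs gave 37 lower genes with libraries 1 to 6 and 35 with libraries 7 to 9, where 33.2% and 38.5% of all genes were called in either direction. Ccne2 was higher in both runs, and Rfc3 was higher with libraries 7 to 9. Against shControl in place of Scrambled, 35 genes were lower in clone2, where 38.5% of all genes were called. In clone1 1 was lower and 1 higher against shControl, where 20.9% of all genes were called.

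**Figure D4:**
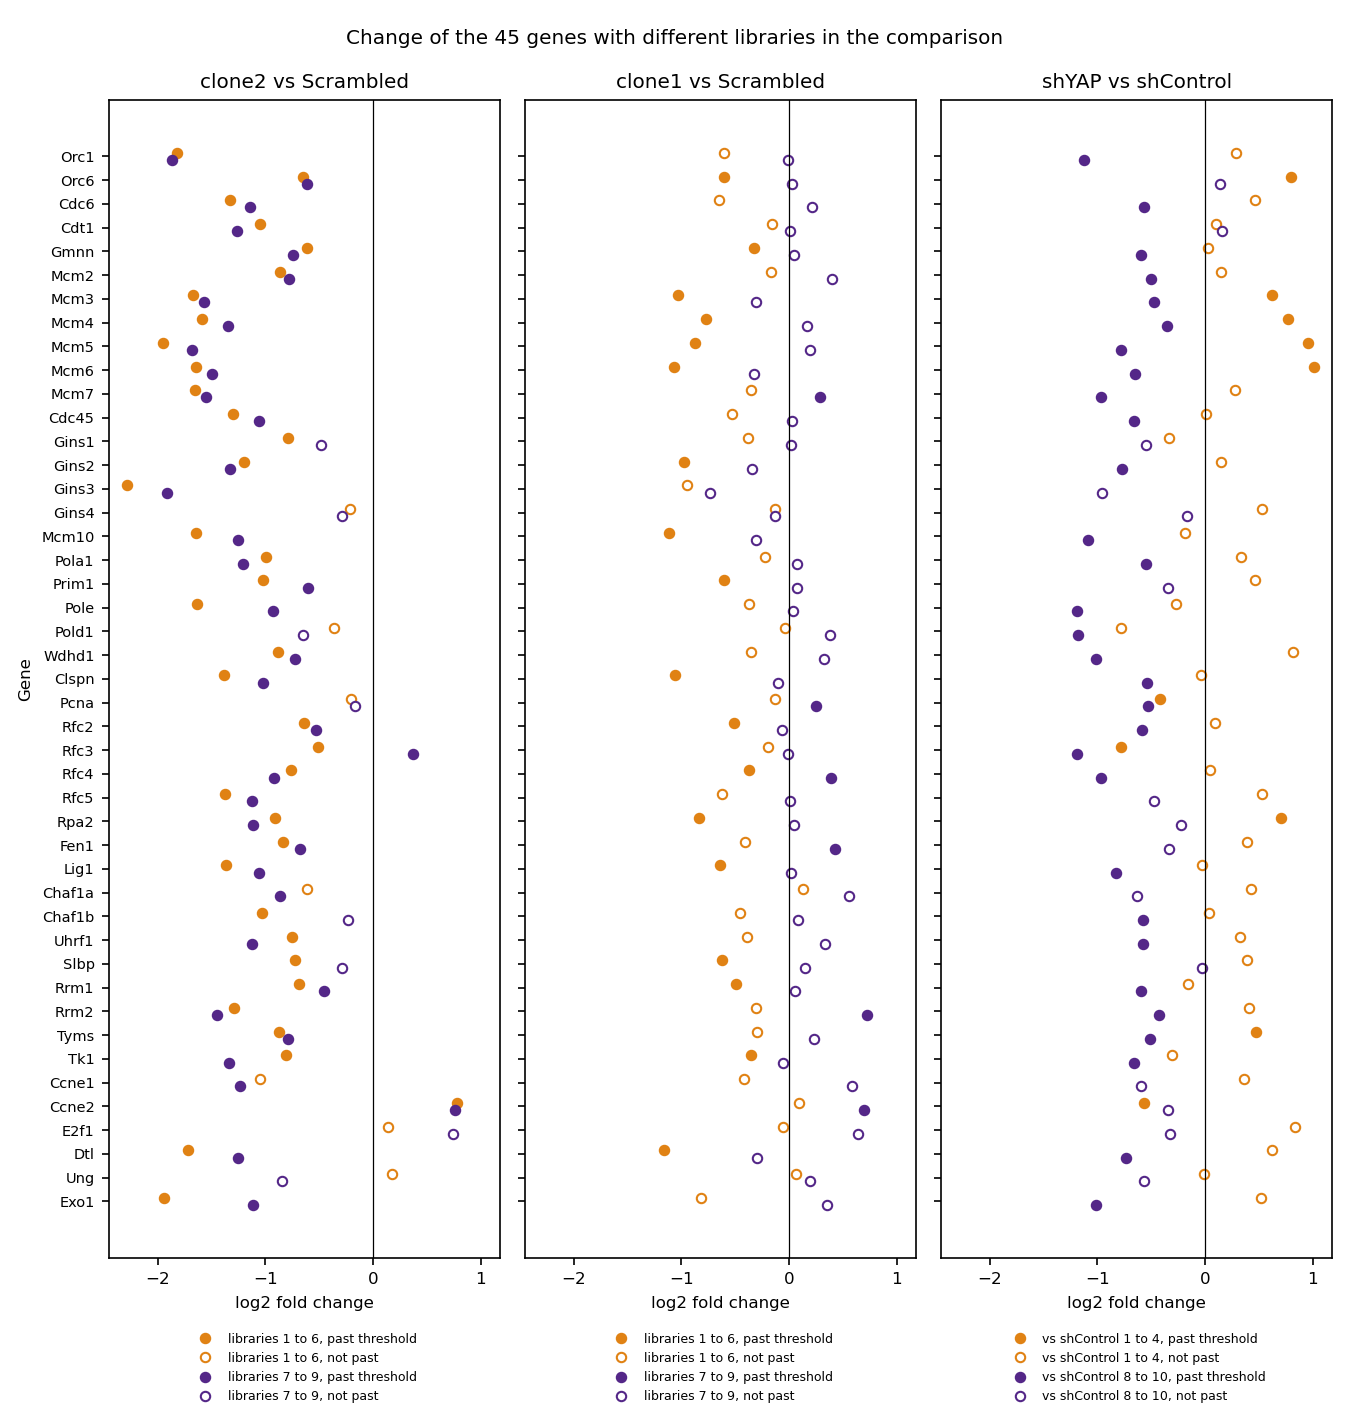
The log2 fold change of the 45 genes when only some libraries enter, for clone2 vs Scrambled (left), clone1 vs Scrambled (middle) and shYAP vs shControl (right). Orange points use clone libraries 1 to 6, or shControl libraries 1 to 4, and purple points use clone libraries 7 to 9, or shControl libraries 8 to 10. Filled points passed an adjusted p of 0.05, and Gins3 was not tested against shControl libraries 1 to 4. In clone2 both colours lie together on the left for most genes, in clone1 18 orange points are filled below 0 and 6 purple points above 0, and against shControl the colours lie on opposite sides for the helicase genes.

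The clones were compared with each other directly, a test that does not use Scrambled. In clone2, 38 of the 45 genes were lower than in clone1 and 1, Ccne2, was higher, where 25.5% and 23.6% of all genes were, 49.1% in all, and the median was -0.77 against -0.05 over all genes. The largest differences were in Mcm7 (-1.54 ± 0.13 SE, adjusted p = 1.4e-11), Orc1 (-1.50 ± 0.31 SE, adjusted p = 0.00013) and Rrm2 (-1.49 ± 0.23 SE, adjusted p = 2.9e-05). In Gmnn, Mcm4, Mcm5, Mcm7, Pola1, Lig1 and Tyms every clone2 library was below every clone1 library, which makes 7 genes, where 4.46% of all genes did so, and in 0 was it above, where 7.28% did. With libraries 1 to 6 of both clones, 25 genes were lower and 1 higher, where 38.8% of all genes were called. With libraries 7 to 9, 38 were lower and 1 higher, where 43.7% were called, and the higher gene was not Ccne2, which did not pass there. Pcna differed least among the named genes that passed (-0.22 ± 0.08 SE, adjusted p = 0.024).

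The hairpin comparison asked what changed with the YAP hairpin, in libraries whose Yap1 mRNA was not lower. Of the 45 genes, 1 was lower and 0 were higher in the libraries labelled shYAP, where 5.9% and 5.47% of all genes were, 11.4% in all, and the median was -0.09 against -0.05 over all genes. By edgeR, 4 genes had an unadjusted p under 0.05. The gene that passed was Rfc3 (ENSMUSG00000033970, chr5:151642756-151651242, minus strand), with 61.0, 70.0 and 57.3 CPM in the libraries labelled shYAP, against 91.9 to 150 CPM in shControl (median 122). Rfc3 was the 1 gene in which every library labelled shYAP was below every shControl library, where 5.26% of all genes were, and 0 were above, where 6.08% were. The change was -0.96 ± 0.17 SE (adjusted p = 0.00071). Ccne2 had 19.9, 21.5 and 23.8 CPM there, inside the shControl range, at -0.30 with a 95% interval of -0.77 to 0.16.

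The control libraries again decided the counts. Mcm3 had 76.6, 82.8 and 83.8 CPM in the libraries labelled shYAP, against 46.8 to 56.8 CPM in shControl libraries 1 to 4, 52.4 to 66.1 CPM in libraries 5 to 7 and 109 to 116 CPM in libraries 8 to 10. These libraries thus lay above 7 of the shControl libraries and below the other 3. Over all of shControl, the change of Mcm3 was 0.15 (95% interval -0.41 to 0.71) and that of Mcm6 was 0.14 (-0.71 to 0.999). Against libraries 1 to 4 alone, Mcm3 gave 0.62 (adjusted p = 0.0036) and Mcm6 1.01 (adjusted p = 0.0015), among 7 higher genes, which also held Mcm4, Mcm5, Orc6, Rpa2 and Tyms, and 3 lower genes, Rfc3, Pcna and Ccne2, where 25.2% of all genes were called. Against libraries 8 to 10 alone, 30 genes were lower and 0 higher, where 21.9% of all genes were called, with Mcm3 at -0.48 (adjusted p = 0.00078) and Mcm6 at -0.65 (adjusted p = 0.0026). Rfc3 was lower in each of these settings.

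The control lines were also compared. Scrambled and shControl were made by different methods, so line, method and group cannot be told apart. In Scrambled, 1 of the 45 genes was higher than in shControl and 0 were lower, where 1.76% and 1.19% of all genes were, 2.95% in all, with a median of 0.28 against -0.04 over all genes and 3 genes at an unadjusted p under 0.05, and 41 of the 45 had a fold change above 0. The gene that passed was Tk1, at 171, 179 and 208 CPM in Scrambled, against 82.5 to 137 CPM in shControl (median 106), and it was the 1 gene with Scrambled wholly above, where 2.62% of all genes were (0.76 ± 0.15 SE, adjusted p = 0.0015). Scrambled was wholly below shControl in 1 gene, Ccne2, where 1.69% of all genes were (-0.69 ± 0.21 SE, adjusted p = 0.051). Against shControl libraries 8 to 10 alone, Tk1 gave 0.53 (adjusted p = 0.064). With shControl libraries 1 to 4 alone, 14 genes were higher in Scrambled and 1 was lower, where 12.4% of all genes were called.

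The effect of the Degs1 knockout was tested against the effect of the hairpin in 1 fit of all 34 libraries. Of the 45 genes, 6 had a lower and 2 a higher knockout effect, where 9% and 9.84% of all genes did, 18.8% in all, and the median difference was -0.59 against 0.08 over all genes. The lower ones were Mcm3 (-1.35 ± 0.34 SE, adjusted p = 0.0048), Mcm6 (-1.33 ± 0.44 SE, adjusted p = 0.032), Mcm4 (-1.28 ± 0.37 SE, adjusted p = 0.014), Orc6 (-1.17 ± 0.28 SE, adjusted p = 0.0026), Rpa2 (-1.09 ± 0.35 SE, adjusted p = 0.027) and Gins2 (-0.85 ± 0.30 SE, adjusted p = 0.045). The higher ones were Ccne2 (0.85 ± 0.28 SE, adjusted p = 0.027) and Rfc3 (0.81 ± 0.26 SE, adjusted p = 0.022). Without Scrambled replicate 1 or without replicate 3, Mcm3, Mcm4 and Orc6 were the 3 that passed, where 13.8% and 14.7% of all genes were called. The count also turned on the runs of libraries, with which the change of Mcm3 and of Mcm6 in the libraries labelled shYAP itself changed sign. With shControl libraries 1 to 4 alone, 19 genes had a lower and 1 a higher knockout effect, where 25.9% of all genes were called. With libraries 8 to 10 alone, 0 were lower and 2, Ccne2 and Rfc3, were higher, where 12.2% were called, and the median difference was 0.0022. The difference was then -0.73 for Mcm3 (adjusted p = 0.11), -0.55 for Mcm6 (adjusted p = 0.30) and -0.66 for Orc6 (adjusted p = 0.074), each in the same direction as with all libraries. With libraries 5 to 10, 3 were lower and 1 higher, where 18.1% were called. With clone libraries 1 to 6 alone, 11 were lower and 2 higher, where 20.1% were called, and with clone libraries 7 to 9, 2 were lower (Mcm3 and Orc6) and 2 higher, where 14.6% were called. Orc6 is a small subunit of the origin recognition complex, and Rpa2 is a subunit of the protein that coats single-stranded DNA.

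Other genes of the pathway, listed from general knowledge, were examined alongside. Of 49 further replication genes, all tested, 27 were lower and 2 higher in clone2, 8 lower and 2 higher in clone1, and 2 lower and 1 higher in the libraries labelled shYAP, where 33.1%, 12.7% and 11.4% of all genes were called in either direction. Their median change was -0.65 in clone2, -0.23 in clone1 and -0.12 in the libraries labelled shYAP, against -0.03, 0.03 and -0.05 over all genes. With clone libraries split by run, 48 of the 49 were tested. In clone2, 25 were lower and 3 higher with libraries 1 to 6 alone, and 28 lower and 2 higher with libraries 7 to 9, where 33.2% and 38.5% of all genes were called. In clone1, 13 were lower and 3 higher with libraries 1 to 6 alone, and 4 were lower and 3 higher with libraries 7 to 9, where 18.4% and 16.2% of all genes were called. In the libraries labelled shYAP, 5 were lower and 6 higher of 45 tested against shControl libraries 1 to 4, where 25.2% of all genes were called. Against libraries 8 to 10, 16 were lower and 4 higher of 46, where 21.9% were called. Nasp, a histone chaperone, had a mean of 33.3 CPM in clone2, 52.4 CPM in clone1 and 83.1 CPM in Scrambled (clone2 change -1.34 ± 0.17 SE, adjusted p = 9.8e-08, and clone1 change -0.66 ± 0.17 SE, adjusted p = 0.0078). Hells, a chromatin remodeller, changed by -1.83 ± 0.28 SE in clone2 (adjusted p = 2e-05), and Dut, the dUTPase that keeps uracil out of DNA, by -1.13 ± 0.15 SE (adjusted p = 2.8e-07).

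Among 36 genes of E2F, RB and cyclin-dependent kinase control, of which 35 were tested, 10 were lower and 3 higher in clone2, and 6 lower and 0 higher in clone1, where 16.6% and 6.71% of all genes were lower and 16.5% and 5.96% higher. Their medians were -0.19 in clone2 and -0.21 in clone1, against -0.03 and 0.03 over all genes. In clone2, 9 were lower and 3 higher with libraries 1 to 6, and 8 lower and 5 higher with libraries 7 to 9, and in clone1 5 were lower and 2 higher with libraries 1 to 6, and 7 lower and 0 higher with libraries 7 to 9. In these runs 33.2% and 38.5% of all genes were called in clone2, and 18.4% and 16.2% in clone1. Cdkn1a, the p21 inhibitor of these kinases, was higher in clone2, at 286 to 384 CPM (median 316), against 146, 170 and 177 CPM in Scrambled (0.97 ± 0.13 SE, adjusted p = 1.2e-07). Cdk6 and Ccnd2, a kinase and a cyclin of G1, were lower in clone2, with changes of -1.48 ± 0.19 SE (adjusted p = 1.1e-07) and -0.97 ± 0.11 SE (adjusted p = 3.6e-09). The list did not move as one: Ccnd3, also a G1 cyclin, was higher in clone2 (1.06 ± 0.18 SE, adjusted p = 1.4e-05), and Cdk4 stood at -0.02 (adjusted p = 0.91). In clone1, Ccnd2 (-0.42, adjusted p = 0.0073) and Cdk4 (-0.42, adjusted p = 0.020) were lower. Cdkn1a (0.29, adjusted p = 0.12), Cdk6 (-0.25, adjusted p = 0.45) and Ccnd3 (0.31, adjusted p = 0.28) did not pass there.

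Genes of G2 and mitosis, which act after replication, were also examined. Of 26, all tested, 24 were lower and 1 higher in clone2, 6 lower in clone1, and 10 lower in the libraries labelled shYAP, beside 37, 4 and 1 of the 45 replication genes, where 16.6%, 6.71% and 5.9% of all genes were lower. Their median change was -0.86 in clone2, -0.29 in clone1 and -0.53 in the libraries labelled shYAP, against -0.03, 0.03 and -0.05 over all genes. In clone2, 22 were lower and 1 higher with libraries 1 to 6, and 24 lower and 0 higher with libraries 7 to 9, where 33.2% and 38.5% of all genes were called. In clone1, 12 were lower with libraries 1 to 6, and 4 lower and 1 higher with libraries 7 to 9, where 18.4% and 16.2% of all genes were called. In the libraries labelled shYAP, 14 were lower against shControl libraries 1 to 4, 9 against libraries 5 to 10 and 20 against libraries 8 to 10, with 0 higher in each. In these settings 25.2%, 13.9% and 21.9% of all genes were called. Ccnb2, a mitotic cyclin, was lower in clone2 (-1.04 ± 0.15 SE, adjusted p = 9.8e-07), in clone1 (-0.94 ± 0.15 SE, adjusted p = 3.2e-05) and in the libraries labelled shYAP (-0.98 ± 0.17 SE, adjusted p = 0.00074). The summed level of these 26 genes was 1766 to 1926 CPM in the libraries labelled shYAP, against 1966 to 2768 CPM in shControl, and the groups did not overlap. By run, shControl held 2468 to 2719 CPM in libraries 1 to 4, 1966 to 2103 CPM in libraries 5 to 7 and 2621 to 2768 CPM in libraries 8 to 10. Clone1 held 2101 to 2425 CPM in libraries 1 to 6 and 2636 to 2668 CPM in libraries 7 to 9, against 2882 to 2905 CPM in Scrambled.

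Promoter sequence was available for 36 of the 45 genes in RefSeq (GRCm38.p6), with 41 promoters that run from 250 bases before to 50 bases after the start. The E2F motif was searched on both strands as TTTCCCGC, TTTCGCGC, TTTGCCGC or TTTGGCGC. It stood in 15 of the 41 promoters (36.6%), against 4.01% of the promoters of all genes tested in the knockout experiment and 2.26% of all 32851 promoters in the table. CCAAT, the box bound by NF-Y, stood in 58.5% of the 41, against 38.6% of the promoters of genes tested. The cell cycle homology region, searched as TTTGAA or TTCGAA, stood in 14.6% of the 41, against 14.3% of the promoters of genes tested. Genes with an E2F match had a median change of -1.28 in clone2 (n = 15), those without a match -0.85 (n = 21) and those with no promoter in the table -0.70 (n = 9), which is a description with no test. A match is a run of letters and not a shown binding site.

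The 4 sequences printed next are stretches of 100 bases before the start of genes that were lower in clone2, shown because they carry the matches, and Pcna is set beside them as a gene with no match that did not pass. These are chosen examples. Of the 15 genes with a match, Rfc3 and Pold1 did not pass in clone2 and the others were lower. Of the 21 without a match, Pcna, Chaf1a, E2f1 and Ung did not pass and the others were lower. Capitals mark the E2F letters, and each sequence is given 5′ to 3′ on the strand of the gene. Mcm6 is at chr1:128359736-128359835 (minus strand), Mcm5 at chr8:75109336-75109435 (plus), Pola1 at chrX:93632214-93632313 (minus), Dtl at chr1:191575545-191575644 (minus) and Pcna at chr2:132253181-132253280 (minus). In Mcm6 and in Mcm5 a pair of matches on opposite strands overlaps, so that they read as 1 run of capitals.
Mcm6: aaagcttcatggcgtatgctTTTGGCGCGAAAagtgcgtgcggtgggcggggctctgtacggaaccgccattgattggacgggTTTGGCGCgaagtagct
Mcm5: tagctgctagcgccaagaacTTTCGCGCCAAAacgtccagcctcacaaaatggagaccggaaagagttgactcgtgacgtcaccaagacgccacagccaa
Pola1: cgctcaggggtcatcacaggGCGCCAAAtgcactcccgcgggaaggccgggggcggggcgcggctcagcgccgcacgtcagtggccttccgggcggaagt
Dtl: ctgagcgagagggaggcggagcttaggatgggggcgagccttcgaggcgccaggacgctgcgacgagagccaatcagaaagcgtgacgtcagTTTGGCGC
Pcna: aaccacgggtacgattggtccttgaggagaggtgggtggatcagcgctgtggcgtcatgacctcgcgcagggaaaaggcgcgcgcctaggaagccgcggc

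**Figure D5:**
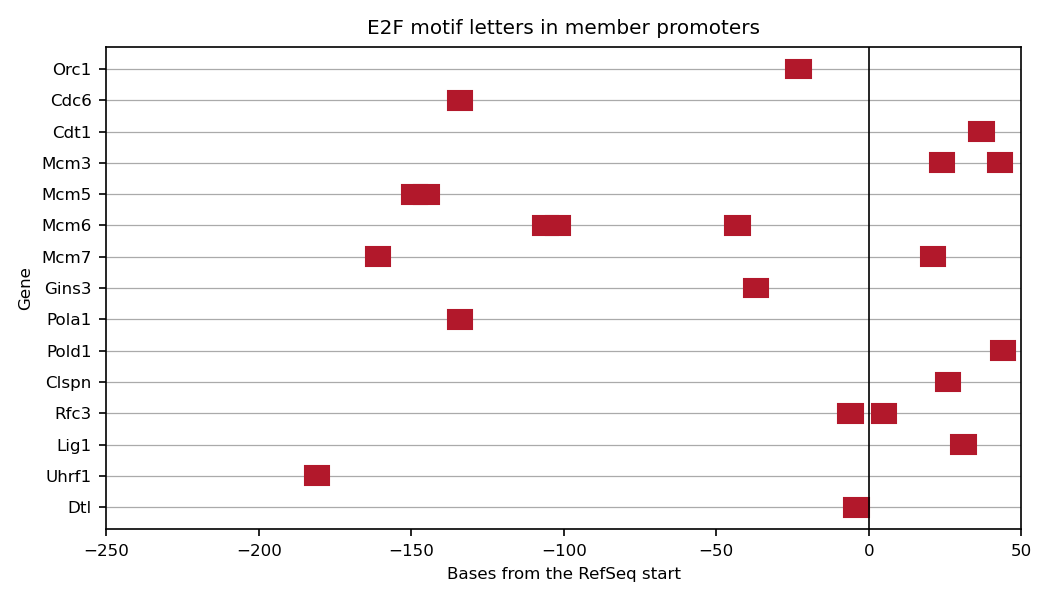
Place of the E2F motif letters in the 15 promoters that hold them, in bases from the RefSeq start, which is the vertical line. Red boxes are matches on either strand and rows are genes. Uhrf1 holds the farthest match, 185 bases before the start, and Mcm6 holds 3 matches.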

How the data were processed

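The deposited table held expected counts per gene, as whole numbers, which the authors made with Salmon 1.3.0 on mm10, per the submitters' processing notes. How transcripts were summed to genes is not given in the sources used here. The libraries were poly(A)-selected and strand-specific, per the labels' protocols. Genes without a name held at most 0.0475% of any library's counts. The members, lists and runs of library numbers were chosen with earlier results of these data known.

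Low genes were removed with filterByExpr, set to a count of at least 10 and a total of at least 15. Libraries were then scaled with TMM, and edgeR 4.0.16 in R 4.3.3 gave two-sided quasi-likelihood tests in its robust form; p-values were adjusted by Benjamini-Hochberg over all genes of a fit. The fit of the knockout experiment had 21 libraries and 11514 genes, that of the hairpin experiment 13 and 11094, and that of all libraries 34 and 11960. Alternatives were DESeq2 1.42.0 and limma 3.58.1, other scalings, filters and libraries. Library totals of 883253 to 6597099 limit the precision for low genes such as Orc1 and Gins3. Named genes were, in each role group, the gene with the highest mean CPM and the one with the smallest adjusted p for the mean of both clones, any higher gene, up to 3 genes with the largest differences in each further comparison, and up to 4 genes of each further list. Other genes were named as examples after their values were seen. Positions came from GENCODE M21 (mm10) and promoters from RefSeq. Clone2 against Scrambled and against clone1, the hairpin comparison and the difference of effects were also run on simulated counts with known changes, of which a part was recovered. The level of 1 immune marker is not reported here.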

Additional observations from a re-analysis of the deposited data

Results flagged for a closer look

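For these genes the clones differed from each other in the direct test, or the knockout effect differed from the hairpin effect. In clone2 against clone1 the log2 differences were -0.49 for Gmnn, -1.50 for Orc1, -1.54 for Mcm7, -0.92 for Mcm3, -0.86 for Mcm6, -1.16 for Mcm4, -0.55 for Gins2, -0.98 for Pola1 and -0.65 for Clspn. They were -0.22 for Pcna, -0.90 for Lig1, -0.80 for Uhrf1, -0.77 for Tyms, -0.74 for Tk1, -1.49 for Rrm2, -0.78 for Dtl, -1.35 for Exo1 and 0.41 for Ccne2. The difference between the knockout effect and the hairpin effect was -1.35 for Mcm3, -1.33 for Mcm6, -1.28 for Mcm4, -0.85 for Gins2, 0.85 for Ccne2 and 0.81 for Rfc3. A check for a single library far from the rest was made 66 times in groups of 4 to 10 libraries. It covered the named genes, the mean log2 CPM and the summed level in shControl, clone1 and clone2. In 0 of these checks was a library singled out, and chance alone would single out about 1 in 20. The checks share the same libraries, and Scrambled and the libraries labelled shYAP, with fewer than 4 libraries each, were not checked. This check sets the gap at the highest or lowest library against the whole range. It cannot single out libraries that stand apart together, such as clone1 libraries 7 to 9 or shControl libraries 8 to 10, and these widen the range.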

How the results depend on the processing

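In clone2 against Scrambled, the number of the 45 genes past the threshold stayed between 31 and 38 under every alternative run, and in clone2 against clone1 between 26 and 40. The share of all genes called was 16.9% with no filter and 38.5% with shControl in place of Scrambled for clone2 against Scrambled. For clone2 against clone1 it was 29.1% with no filter and 49.6% with DESeq2. Percentages in brackets below are the share of all genes called in the same setting. The mean of both clones gave 15 genes at an adjusted p of 0.01 (10.3%), 12 in limma with the run of library numbers as a random block (9.83%), 16 with shControl in place of Scrambled (22.9%), and 14 to 19 with 1 Scrambled library left out (10.2 to 11.6%). Clone1 gave 1 at an adjusted p of 0.01 (6.57%), 1 in the fit of all 34 libraries (9.78%), 1 in limma with the run block (5.59%), 18 with libraries 1 to 6 (18.4%), 6, all higher, with libraries 7 to 9 (16.2%), 2 with shControl in place of Scrambled (20.9%), and 1 to 3 with 1 Scrambled library left out (6.59 to 8.63%). The libraries labelled shYAP gave 2 in the fit of all 34 libraries (17.3%), and 10 (7 higher), 3 and 30 against shControl libraries 1 to 4 (25.2%), 5 to 10 (13.9%) and 8 to 10 (21.9%). Scrambled against shControl gave 2 with RLE scaling (2.93%), 2 with DESeq2 (4.21%), 15 with shControl libraries 1 to 4 (12.4%) and 1, Ccne2, lower, with libraries 8 to 10 (4.12%). The difference of effects gave 2 at an adjusted p of 0.01 (9.71%), 5 with no filter (7.70%), 3 to 7 with 1 Scrambled library left out (13.3 to 14.7%) and 4 to 5 with 1 library labelled shYAP left out (12.8 to 14.6%). It gave 20, 4 and 2 (both higher) with shControl libraries 1 to 4 (25.9%), 5 to 10 (18.1%) and 8 to 10 (12.2%), and 13 and 4 with clone libraries 1 to 6 (20.1%) and 7 to 9 (14.6%).

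Equal replicate numbers share only a number: libraries of equal number did not deviate together (correlation -0.069 to 0.076). With the replicate block, clone1 gave 7 genes, where 11.7% of all genes were called. That fit sets Scrambled directly against clone libraries 1 to 3, since later clone libraries have no Scrambled library of equal number. The libraries labelled shYAP gave 7 (6 higher), where 15.6% of all genes were called, in a fit that sets them against shControl libraries 1 to 3.

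The sign turned in some gene-level checks. With shControl in place of Scrambled, Mcm7 in clone1 gave 0.37, Ccne2 in clone1 -0.35, Cdca7 in clone1 0.083, Gins4 in clone2 0.046, Ung in clone2 0.13, and for the mean of both clones Tk1 gave 0.15 and Ccne2 -0.14. With libraries 7 to 9, Mcm7 in clone1 gave 0.29 and Rfc3 in clone2 0.38. Rrm2 in clone1 gave -0.31 with libraries 1 to 6 and -0.024 in limma. Against shControl libraries 5 to 10 and 8 to 10, Mcm3 in the libraries labelled shYAP gave -0.092 and -0.48, and Mcm6 gave -0.23 and -0.65. Ung in clone2, which did not pass, gave 0.22 with the replicate block and 0.17 with libraries 1 to 6. With 1 Scrambled library left out, Ung gave -0.44 to 0.099 and Gins4 in clone2 -0.55 to 0.042. The cause was not tested. The limma alternatives, and those by run of libraries for the difference of effects and for the further lists, were chosen after seeing the data.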
